A study of Mus musculus with 30 samples.

Results

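Timp1, Pdpn, Cxadr and Sema3f are 4 genes of stromal and barrier cells that were chosen by their measured values, as large rises in the blood of p38DKI mice after 7 Gy. They are 4 of 18726 genes tested, and among the p38DKI rises of those genes Timp1 ranked 5, Pdpn 11, Cxadr 12 and Sema3f 13. The p38DKI values therefore describe how the genes were chosen and carry no test here. Tests are given for p38WT and p38DN, whose arrays had no part in the choice.

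The series addressed how p38 mitogen-activated protein kinase signaling bears on radiation biodosimetry, the estimate of dose from blood. The mice were C57BL/6J males of 3 genotypes, p38WT, p38DKI and p38DN. Irradiated mice received 7 Gy of x-rays and were bled after 24 h, and the rest were unirradiated. DKI and DN are written as the labels write them, with no allele or promoter spelled out. Blood was taken by cardiac puncture into PAXgene tubes, which fix RNA, with 5 mice and 5 one-colour Agilent arrays in each of the 6 groups. All groups share the strain, the sex and the route of blood collection.

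Timp1 encodes a secreted inhibitor of the matrix metalloproteinases, the enzymes that cut collagen and other parts of the extracellular matrix. Sema3f encodes a secreted semaphorin, a guidance cue for axons and vessels that binds neuropilins and signals through plexins. Pdpn encodes podoplanin, a membrane glycoprotein of lymphatic endothelium, mesothelium and reticular fibroblasts, whose receptor CLEC-2 on platelets is encoded by Clec1b. Cxadr encodes the coxsackievirus and adenovirus receptor, known as CAR, an adhesion protein of tight junctions in epithelium and heart. Pdpn, Cxadr and Sema3f are known mainly from solid tissues, and Timp1 also from leukocytes and platelets.

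Levels are log2 signals relative to the 75th percentile of the same array, an intensity that lay between 43.3 and 230 over the 30 arrays. Between 39.7% and 63.2% of probes were well above background on an array. The irradiation labels held up on every array in Phlda3, a p53 target (0.72 to 2.12 unirradiated, 3.51 to 5.53 after 7 Gy), and in the B cell gene Vpreb3 (3.25 to 5.35 unirradiated, -2.89 to -0.33 after 7 Gy). Blood-defining transcripts were present throughout, with all 12 markers (Hba-a1, Ptprc, S100a9 and others) well above background on every array. Hepatocyte transcripts were also present, and the mean of 22 hepatocyte markers was highest on p38DKI irradiated 2 (7.98) and p38DN unirradiated 4, 5 and 2 (7.09, 7.06 and 5.99), against a range of -3.57 to 2.47 on the other arrays. In bulk blood, fewer cells of a type and less RNA per cell cannot be told apart.

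Slides were not balanced over the groups of p38WT and p38DKI. Each p38DN slide held 1 unirradiated and 1 irradiated array, and the p38DN slides were scanned on 5 other days than the rest. Among the p38WT arrays only slide 2 held both treatments (unirradiated 5 with irradiated 1 to 3), and among the p38DKI arrays only slide 4 did (unirradiated 3 to 5 with irradiated 1). Slide 1 held p38WT unirradiated 1 to 4, and slide 5 held p38DKI irradiated 2 to 5. Slide 3 held p38DKI unirradiated 1 and 2 with p38WT irradiated 4 and 5. Apart from slides 2 and 4, slide and treatment cannot be told apart within p38WT and p38DKI.

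The upstream stretches of Timp1 and Pdpn are shown because these 2 of the 4 genes had a window in the table used. They are the 250 bases before the annotated start in RefSeq on GRCm38.p6. Capitals mark a match to any of 5 motifs searched on both strands, namely AP-1 (TGANTCA), STAT (TTCNNNGAA), CRE (TGACGTCA), Sp1 (GGGCGG) and the TATA box (TATAAA).
Timp1, chrX:20869916-20870165, plus strand: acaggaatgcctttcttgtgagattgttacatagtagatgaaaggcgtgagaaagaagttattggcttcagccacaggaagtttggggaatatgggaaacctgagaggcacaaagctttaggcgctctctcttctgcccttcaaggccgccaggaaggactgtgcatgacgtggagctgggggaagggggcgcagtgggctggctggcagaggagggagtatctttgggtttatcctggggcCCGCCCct
Pdpn, chr4:143299565-143299814, minus strand: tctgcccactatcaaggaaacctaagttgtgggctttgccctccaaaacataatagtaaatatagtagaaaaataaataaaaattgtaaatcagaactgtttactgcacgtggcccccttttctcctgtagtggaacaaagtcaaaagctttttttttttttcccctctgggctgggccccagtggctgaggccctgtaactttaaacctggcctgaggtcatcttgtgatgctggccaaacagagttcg

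The Timp1 window held 1 Sp1 match, on the reverse strand and ending close to the start, and the Pdpn window held none of the 5 motifs. Among all 32851 windows of this length, 32.7% held an Sp1 match, 12.4% a TATA match, 7.02% a STAT match, 6.75% an AP-1 match and 1.55% a CRE match. The Timp1 window was 54.4% G or C and the Pdpn window 43.2%. A match is a run of letters and not a measured binding site.

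Timp1 was measured by 1 probe at chrX:20451802-20451861 (mm9, plus strand), well above background on 11 of 30 arrays. In p38DKI its level was -5.16, -5.04, -6.06, -5.88 and -5.18 on unirradiated arrays 1 to 5. On the irradiated p38DKI arrays it was 0.51, -1.29, 0.55, 1.27 and -0.44. The treatments did not overlap in this genotype, and none of the 5 unirradiated arrays was well above background. The change was 5.58 on the log2 scale and at least 10.7-fold when the dim group was raised to the lowest measurable signal of each array. Without p38DKI irradiated 2 it was 5.94, with an irradiated mean of 0.47 ± 0.70 (SD, n = 4).

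Timp1 in p38WT was -5.69, -5.16, -5.70, -4.50 and 1.09 on the unirradiated arrays. It was -1.60, -1.58, -0.89, -4.83 and -0.56 on the irradiated arrays. The treatments overlapped through unirradiated array 5, which was exceeded on a single irradiated p38DKI array, and irradiated array 4, which lay among the unirradiated values. The p38WT change was 2.10 (95% interval 0.25 to 3.95, n = 5 against 5, limma adjusted p = 0.0851). It was 3.37 without unirradiated 5, with no remaining unirradiated array well above background, and 2.84 without irradiated 4. Of 10 fits that each left out 1 p38WT array, these 2 passed the 0.05 threshold. Both arrays oppose the rise by their own Timp1 levels, so the 2 calls follow from leaving them out and are not counted as a result. Within slide 2, where unirradiated 5 is the lone control, the change was -2.45.

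Timp1 in p38DN was -4.84, -5.57, -4.40, -5.44 and -5.71 on the unirradiated arrays, none well above background. It was -3.19, -5.01, -4.50, -3.05 and -2.99 on the irradiated arrays, of which 1 was well above background. The group means were -5.19 and -3.75 (limma adjusted p = 0.243), too near the measurable limit for a fold.

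Sema3f, the secreted guidance cue, was measured by 1 probe at chr9:107583833-107583892 (mm9, minus strand), well above background on 22 arrays. In p38DKI it was -1.91, -3.71, -5.67, -5.69 and -4.52 unirradiated. After 7 Gy it was 0.72, 1.30, -1.28, 1.19 and -0.54. The treatments did not overlap, and unirradiated array 1 was the nearest to the irradiated range. The change was 4.58, and 4.32 without irradiated 2. Of the unirradiated p38DKI arrays 1 of 5 was well above background, so these changes set signal largely against background.

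Sema3f in p38WT was -3.13, -3.78, -2.84, -3.08 and -1.11 on the unirradiated arrays. It was -0.68, -2.20, -0.68, -4.43 and 0.46 on the irradiated arrays. Array 5 of the unirradiated group and array 4 of the irradiated group were again the ones that crossed, and irradiated 4 held the lowest value of both groups. The change was 1.28 (95% interval -0.40 to 2.96, limma adjusted p = 0.266), and within slide 2 it was -0.07.

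Sema3f in p38DN was -3.18, -1.45, -3.14, 0.10 and -0.23 on the unirradiated arrays. It was 0.10, -1.02, -1.65, -0.52 and -0.09 on the irradiated arrays. The 3 high unirradiated arrays were 2, 4 and 5, the arrays highest in hepatocyte transcripts, and the treatments overlapped. The change was 0.94 (95% interval -0.74 to 2.63, limma adjusted p = 0.421). It was 1.99 with the hepatocyte mean as a covariate (limma adjusted p = 0.0337) and 2.52 without the hepatocyte-rich arrays (limma adjusted p = 0.0665). The 2.52 rests on unirradiated 1 and 3 as controls, neither well above background. The 1.99 rests on a covariate that itself differed by treatment in p38DN (median 5.99 unirradiated, 0.90 irradiated). That fit cannot fully part the covariate from treatment.

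Pdpn, the membrane partner of CLEC-2, was measured by the probe at chr4:142857339-142857398 (mm9, minus strand), well above background on 22 arrays. In p38DKI it was -0.59, -2.29, -4.20, -5.68 and -3.13 unirradiated. After 7 Gy it was 2.38, 1.42, 0.47, 2.71 and 0.67. The treatments did not overlap, and unirradiated array 1 lay nearest to the irradiated range. The change was 4.71, and 4.73 without irradiated 2. Of the unirradiated p38DKI arrays 2 of 5 were well above background, so these changes set signal largely against background.

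A further Pdpn probe, whose mm9 coordinates span chr4:142858329-142859146, was not kept because it was near background. It was well above background on 0 of 5 unirradiated and 2 of 5 irradiated p38DKI arrays, with means of -4.09 ± 1.03 and -4.23 ± 1.04 (SD, n = 5 each). The p38DKI rise of Pdpn was thus read by 1 probe, and the dimmer probe differed by -0.14.

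Pdpn in p38WT was -3.62, -2.02, -4.64, -1.20 and 1.59 on the unirradiated arrays. It was -0.52, -0.76, 0.39, -2.94 and 1.47 on the irradiated arrays. Unirradiated array 5 was the highest of the 10 p38WT arrays. The change was 1.51 (95% interval -0.50 to 3.52, limma adjusted p = 0.275), and within slide 2 it was -1.88.

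Pdpn rose in p38DN. It was -4.86, -4.51, -4.49, -2.38 and -2.44 on the unirradiated arrays. It was 0.82, -1.77, -1.32, -0.32 and 0.98 on the irradiated arrays, all above every unirradiated array. The change was 3.41 (95% interval 1.40 to 5.43), with a limma adjusted p of 0.00997 (0.00344 with slide as a fixed block). Unirradiated 1, 2 and 3 were not well above background. The change thus sets signal in part against background, and no fold is given. The irradiated array was the higher on 5 of 5 slides, by 2.06 to 5.68. The call was not made with normexp background correction and quantile normalization (0.88, limma adjusted p = 0.0587), in the authors' deposited values (2.51, limma adjusted p = 0.0945), which hold 3 of the 5 unirradiated arrays for this probe. The dimmer probe was well above background on 0 of 5 arrays of either treatment in p38DN, so it could not be compared there. Some p38DN arrays of a group lay close together. Unirradiated 4 and 5 had hepatocyte marker means of 7.09 and 7.06 and neutrophil marker means of 2.46 and 2.44. Irradiated 1 and 5 had platelet marker means of 7.11 and 7.21 and endothelial marker means of 2.38 and 2.38. Whether these arrays hold RNA of separate mice was not tested, and the p-values take them as separate.

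Cxadr, the junction protein, was measured by the probe at chr16:78340937-78340996 (mm9, plus strand), well above background on 23 arrays. In p38DKI it was -1.44, -4.03, -3.94, -4.65 and -4.62 unirradiated. After 7 Gy it was 0.50, 3.31, -0.86, 1.69 and -0.01. The treatments did not overlap, with unirradiated 1 the nearest, and the highest level was on irradiated 2, the array richest in hepatocyte transcripts. The change was 4.66, and 4.07 without irradiated 2, where the irradiated mean was 0.33 ± 1.06 (SD, n = 4). Of the unirradiated p38DKI arrays 1 of 5 was well above background, so these changes set signal largely against background. A probe of another Cxadr transcript variant, at chr16:78359501-78359560, was well above background on 2 of 30 arrays and changed by 0.33 in p38DKI.

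Cxadr in p38WT was -2.87, -2.61, -2.20, -2.67 and -1.20 on the unirradiated arrays. It was -1.53, -0.72, -0.39, -1.32 and 0.83 on the irradiated arrays. In this gene 3 of 5 irradiated arrays lay above every unirradiated array. The change was 1.69 (95% interval -0.15 to 3.52, limma adjusted p = 0.171). With the 4 arrays richest in hepatocyte transcripts left out, none of them p38WT, the same difference had a limma adjusted p of 0.028, and within slide 2 the change was 0.33.

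Cxadr in p38DN was -4.88, -0.95, -4.48, 0.53 and 0.33 on the unirradiated arrays. It was -1.20, -2.74, -2.81, -2.17 and -0.76 on the irradiated arrays. The unirradiated arrays fell apart into 2 low and 3 high, and the 3 high ones were again the hepatocyte-rich arrays 2, 4 and 5. The change was -0.05 (95% interval -1.88 to 1.79, limma adjusted p = 0.978). Without the hepatocyte-rich arrays it was 2.75 (limma adjusted p = 0.0104), and with the hepatocyte mean as a covariate 1.52 (limma adjusted p = 0.0367). The 2.75 rests on the 2 low unirradiated arrays, 1 and 3, neither well above background, so it sets signal against background. The 1.52 rests on a covariate that itself differed by treatment in p38DN, as for Sema3f, which the fit cannot fully part from treatment. In the authors' deposited values, which hold 3 of the 5 unirradiated p38DN arrays for Cxadr, the change was -2.18 (limma adjusted p = 0.0413). That value depends on which 2 arrays are missing. The 3 high unirradiated arrays alone would also give a fall, so it is not read as a fall in p38DN.

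**Figure D1:**
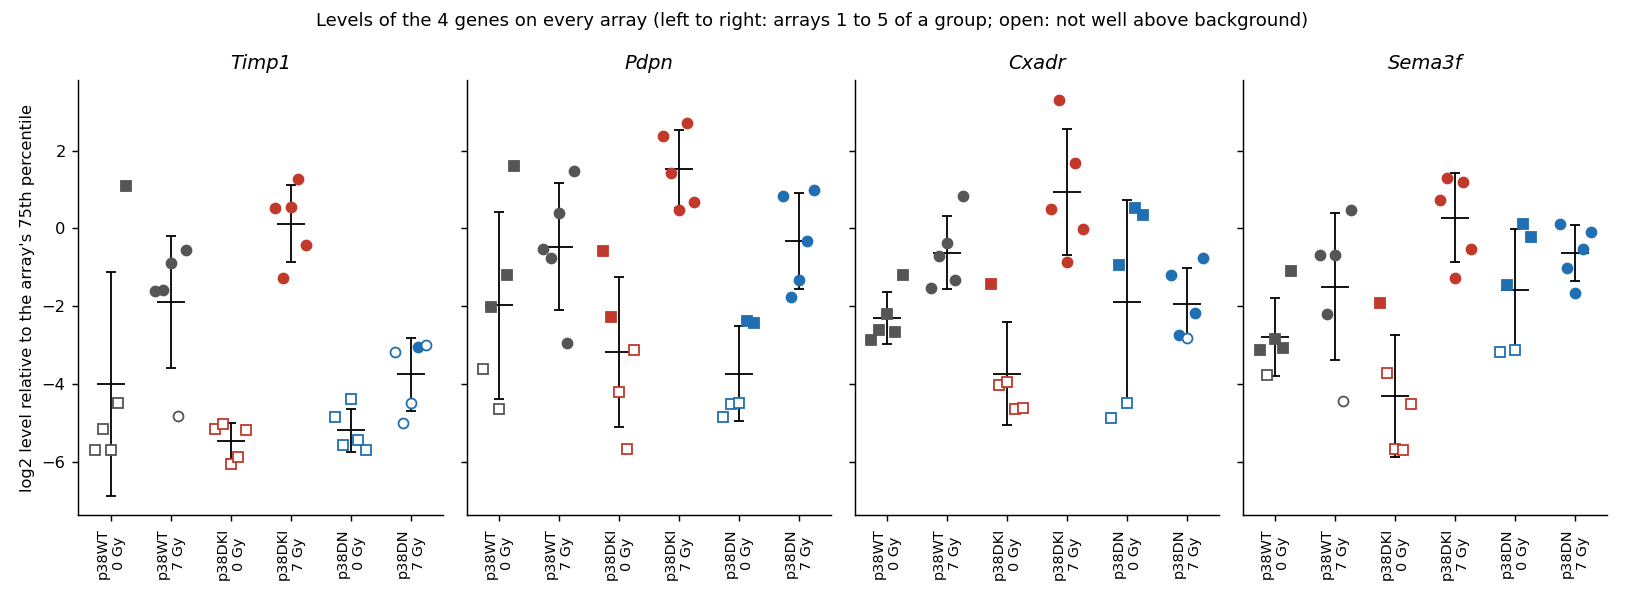
Log2 level of each gene relative to the array's 75th percentile (y axis) on all 30 arrays in 6 groups (x axis), squares unirradiated and circles 7 Gy, open symbols not well above background, with group mean and SD in black (n = 5). All 5 irradiated p38DKI arrays lie above the unirradiated ones in each gene, while p38WT unirradiated 5 and irradiated 4 cross their groups in Timp1.

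In p38WT, limma called 0 of the 4 genes, against 27.1% of all genes in either direction and 15% higher. At an unadjusted limma p under 0.05 it would call 1 of 4, Timp1, with no share over all genes given at that level. None of the 4 had every irradiated array above every unirradiated one, against 12.9% of all genes. In p38DN, limma called 1 of 4 genes, Pdpn, against 27.9% in either direction and 17.6% higher. Pdpn was also the 1 gene with separated treatments, against 12.4% of all genes.

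The p38DN change did not differ detectably from the p38WT change. By limma 0 of the 4 genes were called for that difference, also at an unadjusted p under 0.05, against 1.64% of all genes after adjustment. The differences were -0.66 for Timp1 (95% interval -3.27 to 1.95), 1.91 for Pdpn (-0.94 to 4.75), -1.73 for Cxadr (-4.33 to 0.86) and -0.34 for Sema3f (-2.72 to 2.04). Every one of these intervals holds 0.

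In p38DKI all 4 genes, picked there as large rises, had separated treatments, against 7.23% of all genes. There 31.3% of genes were called in either direction and 12.1% higher, a split of 2262 higher to 3606 lower that became 3792 to 1280 when array medians replaced the 75th percentile. That scaling moved the median change of all genes in p38DKI by 0.42, and the 4 genes rose by 5 to 6 under it. Within slide 4, which holds 1 irradiated and 3 unirradiated arrays, the p38DKI changes were 6.22 for Timp1, 6.72 for Pdpn, 4.91 for Cxadr and 6.02 for Sema3f. None of these unirradiated arrays was well above background in any of the 4 genes.

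The p38DKI rises that chose the genes stood above the p38WT changes by 3.20 for Pdpn, 2.97 for Cxadr and 3.30 for Sema3f, which follows in part from the choice and has no test. When p38DKI irradiated 2 and p38WT unirradiated 5 and irradiated 4 were left out, these became 1.72, 1.93 and 1.89. The p38WT changes without their 2 arrays were 3.02 for Pdpn, 2.14 for Cxadr and 2.43 for Sema3f. The p38WT arrays were picked by these same levels, so no p-value is given for that subset. No such difference is given for Timp1, which was well above background on 0 of 5 unirradiated p38DKI arrays. Pdpn was so on 2 of 5 of them, and Cxadr and Sema3f on 1 of 5. Their p38DKI changes and differences thus also set signal largely against background.

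**Figure D2:**
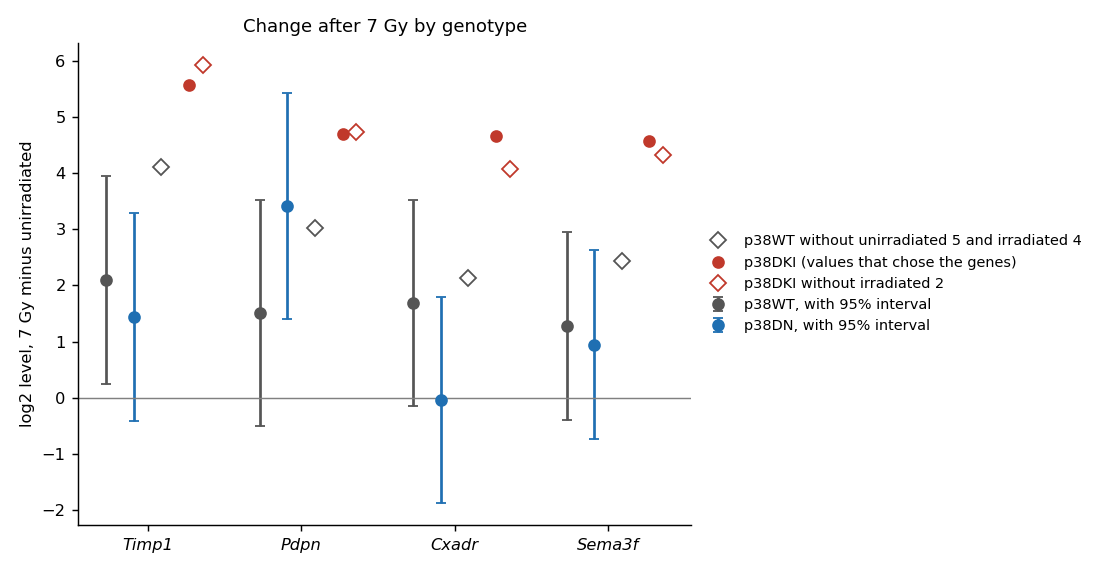
Log2 change from unirradiated to 7 Gy (y axis) for each gene (x axis): filled circles are p38WT and p38DN with 95% intervals and p38DKI without one, and open diamonds leave out the named arrays. Pdpn in p38DN (1.40 to 5.43) and Timp1 in p38WT (0.25 to 3.95) are the intervals that lie above 0, and the p38WT diamonds lie between 2.14 and 4.11. Timp1 was not well above background in unirradiated p38DKI and p38DN, nor in p38WT without unirradiated 5, so its points there set measured signals against background. In unirradiated p38DKI, Pdpn was well above background on 2 of 5 arrays and Cxadr and Sema3f on 1 of 5. In unirradiated p38DN, Pdpn was so on 2 of 5.

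Ordered by median, irradiated p38DKI was highest in all 4 genes, at 0.51 for Timp1, 1.42 for Pdpn, 0.50 for Cxadr and 0.72 for Sema3f. That place, and a low one for unirradiated p38DKI, follow in part from the choice of the genes. The lowest medians were in unirradiated p38DN for Pdpn (-4.49), and in unirradiated p38DKI for Cxadr (-4.03) and Sema3f (-4.52). Each of these medians fell on an array not well above background. Of 5 arrays in these groups, 2, 1 and 1 were well above it, so the lowest places are not measured levels. The 3 unirradiated groups have no order in Timp1, which was well above background on 1 of their 15 arrays. Between the highest and lowest groups the order differed from gene to gene: irradiated p38WT was second for Timp1 (-1.58) and Cxadr (-0.72), and irradiated p38DN for Pdpn (-0.32) and Sema3f (-0.52). Every group overlapped its neighbour in that order, in each of the 4 genes.

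**Figure D3:**
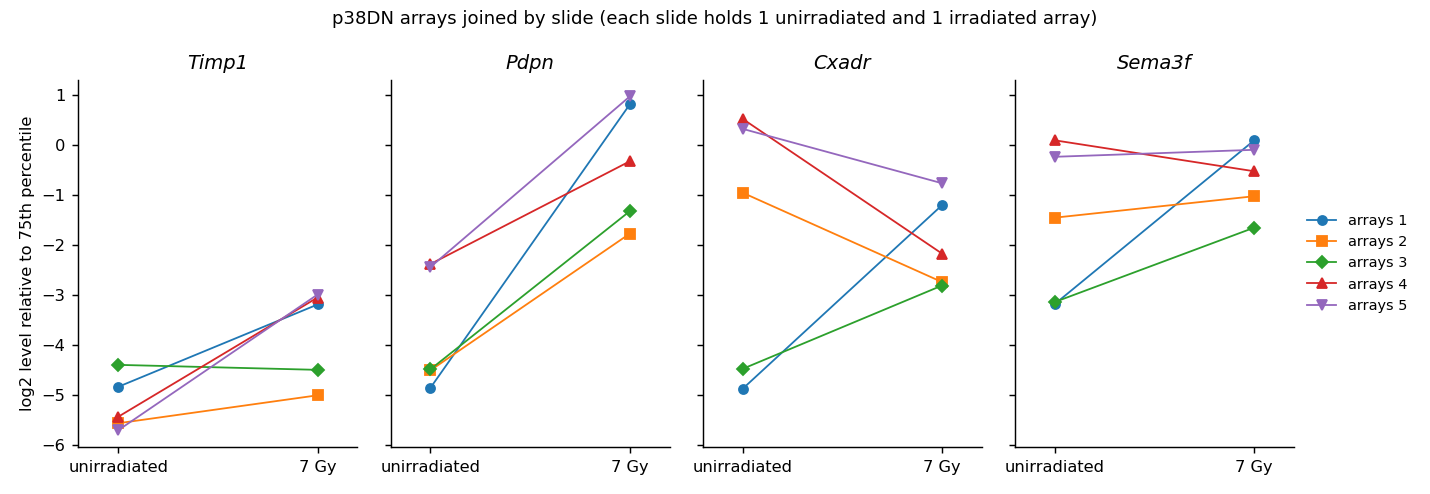
Log2 levels of the 4 genes on the p38DN arrays (y axis), unirradiated and 7 Gy (x axis), with lines joining the 2 arrays of a slide. Pdpn goes up on 5 of 5 slides, Sema3f on 4 of 5 and Cxadr on 2 of 5, where arrays 2, 4 and 5 start high, while Timp1 was well above background on 1 of the 10 arrays. Pdpn was not well above background on unirradiated 1, 2 and 3.

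Within groups, some pairs of the 4 genes varied together over the 30 arrays. After each group mean was subtracted, Pearson's r was 0.81 between Pdpn and Sema3f (Spearman 0.81), 0.79 between Cxadr and Sema3f (0.81), 0.72 between Timp1 and Pdpn (0.63) and 0.60 between Pdpn and Cxadr (0.66). It was 0.48 between Timp1 and Sema3f and 0.12 between Timp1 and Cxadr, and 0.26 and -0.04 without the 2 arrays farthest in Timp1. These are descriptions over arrays that share library and scaling, with no p-value. Without the 2 arrays farthest in the first-named gene of a pair, the other 4 were 0.55 to 0.77.

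Mesothelial markers moved with the 4 genes. Their mean over 10 genes (Msln, Upk3b, Wt1 and others) lay between -4.15 and -1.21 in unirradiated p38DKI and between -1.68 and 1.12 after 7 Gy, with 3 to 7 of the 10 and 8 to 10 of the 10 well above background. In p38WT it was -1.80 on unirradiated 5 against -4.13 to -2.57 on the other 4 unirradiated arrays, and -3.83 on irradiated 4 against -2.55 to 0.44 on the other irradiated arrays. The 2 p38WT arrays that crossed in Timp1 thus crossed in these markers too. In p38DN it ran from -3.11 to -1.53 unirradiated and from -1.72 to -0.65 irradiated.

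Within groups, the mesothelial mean correlated with Sema3f at r = 0.91 (Spearman 0.87), with Pdpn at 0.90 (0.91), with Cxadr at 0.65 (0.64) and with Timp1 at 0.58 (0.51), over 30 arrays. Without the 2 arrays farthest from the median these were 0.88, 0.89, 0.66 and 0.47. The 10 markers include Krt8 and Krt18, which hepatocytes also express, and their mean correlated with the hepatocyte mean at 0.43 within groups. Without Krt8, Krt18 and Krt19 that fell to 0.17, and the mean of the other 7 markers correlated with Pdpn at 0.88, with Sema3f at 0.77, with Timp1 at 0.67 and with Cxadr at 0.41. The mean of 16 fibroblast markers gave 0.87 with Pdpn, 0.85 with Sema3f, 0.63 with Cxadr and 0.59 with Timp1. With the mesothelial mean as a covariate, a fit added after the levels had been seen, the p38DKI changes were 3.33 for Timp1, 0.91 for Pdpn, 2.17 for Cxadr and 1.37 for Sema3f. In that fit the p38DN change of Pdpn was 1.69 (limma adjusted p = 0.0108).

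Hepatocyte markers moved with Cxadr (r = 0.83 within groups, Spearman 0.70) and Sema3f (0.61, Spearman 0.61), with r = 0.30 for Pdpn and -0.16 for Timp1. Timp1 was not well above background on the 3 hepatocyte-rich unirradiated p38DN arrays. Other lists moved with some of these genes too. Epithelial and bile duct markers, which share Krt8, Krt18 and Krt19 with the mesothelial list, gave 0.78 for Sema3f, 0.73 for Cxadr, 0.68 for Pdpn and 0.26 for Timp1. Acute phase genes gave 0.81 for Cxadr, 0.57 for Sema3f, 0.26 for Pdpn and -0.19 for Timp1. Whether RNA from other tissues had a part in the rise of any of the 4 genes was not tested.

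**Figure D4:**
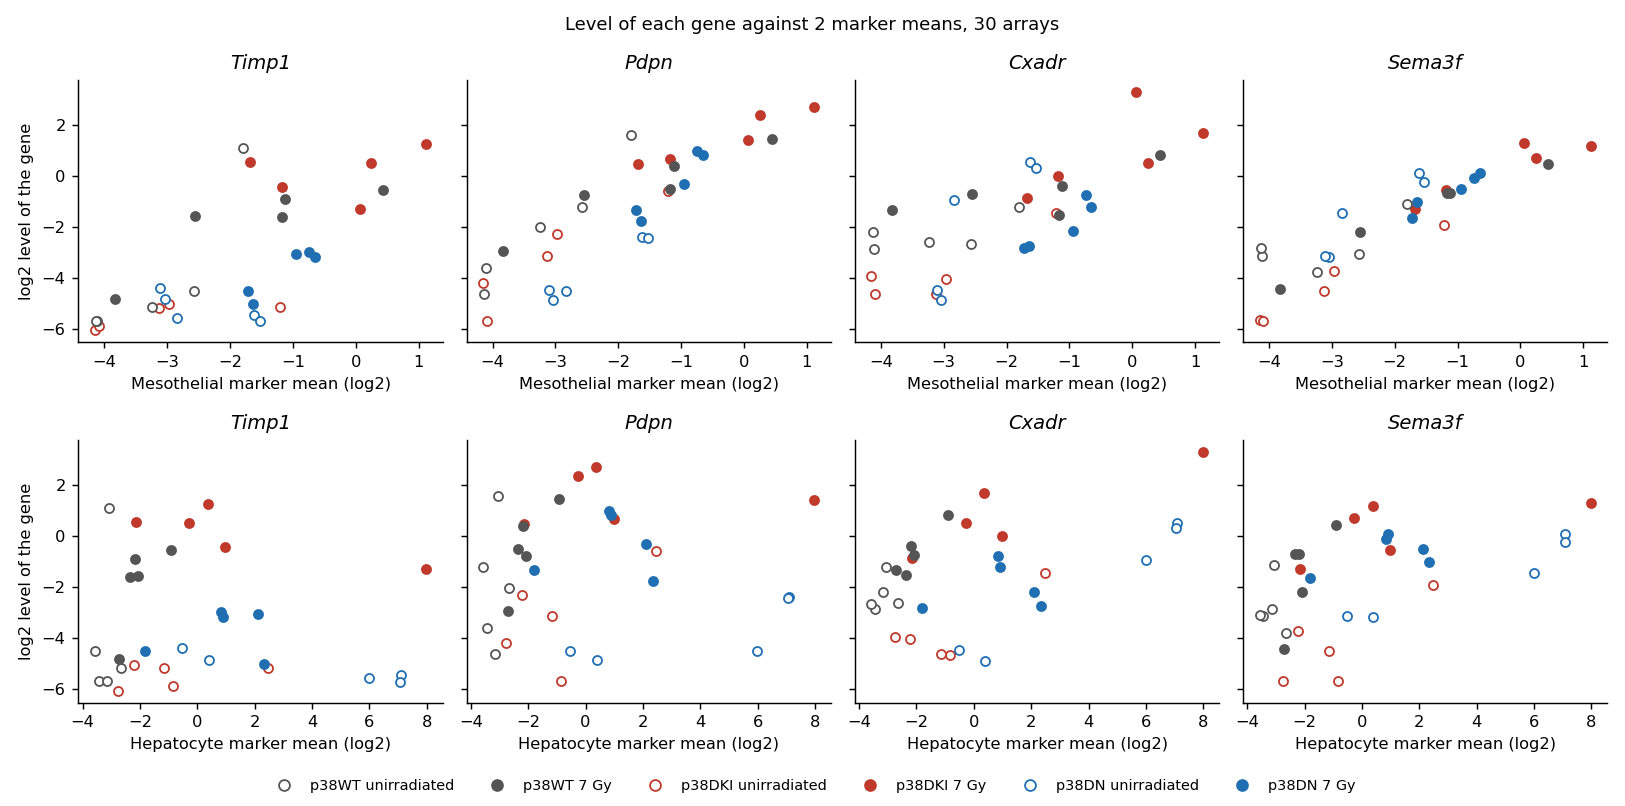
Log2 level of each gene (y axis) against the mean log2 level of 10 mesothelial (top) and 22 hepatocyte markers (bottom) on the x axis, 1 point per array, open unirradiated and filled 7 Gy. Pdpn and Sema3f follow the mesothelial mean (r = 0.90 and 0.91 within groups), and Cxadr is the gene that follows the hepatocyte mean most closely (0.83).

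Among the other metalloproteinases and inhibitors, 6 of 15 measured genes rose and 2 fell in p38DKI by limma (median 0.53, against -0.25 over all genes), with 7 and 1 in p38WT and 7 and 2 in p38DN. Over all genes 12.1%, 15% and 17.6% rose in p38DKI, p38WT and p38DN, the shares against which this and the later counts are to be read. Under other scalings as few as 2 of these genes rose in p38WT, where the rises over all genes went from 2814 to 840 without scaling. The shares above are for adjusted p-values with all arrays. None is given for counts at an unadjusted p or without irradiated 2. Timp3, an inhibitor held in the matrix, rose by 1.81 in p38DKI (SE 0.387, adjusted p = 0.000973), 1.19 in p38WT (called under 2 of 4 other scalings) and 1.34 in p38DN. Timp2 rose by 1.33 in p38DKI (adjusted p = 0.00439) and 2.57 in p38DN (adjusted p = 4.58e-06). Its p38WT rise of 1.01 (adjusted p = 0.0278) was not called under any of 4 other scalings. Timp2 was well above background on 5 of 5 arrays in each group.

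The neutrophil collagenase Mmp8 and the gelatinase Mmp9 rose in p38DKI, by 1.99 (adjusted p = 0.00147) and 1.71 (adjusted p = 0.00796). Both also rose in p38WT, by 2.16 and 1.77 (adjusted p = 0.000671 and 0.00643). In p38DN they differed by 0.70 and 0.49 (adjusted p = 0.251 and 0.481). Both stand in the neutrophil list, of which 10 of 12 genes rose in p38DKI, 12 of 12 in p38WT and 1 of 12 in p38DN. Mmp19 rose in the 3 genotypes, by 1.56, 1.52 and 2.42 in p38DKI, p38WT and p38DN, with the p38WT call kept under 3 of 4 other scalings.

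Of the podoplanin partners, 2 of 9 measured genes rose in p38DKI, 3 in p38WT and 5 in p38DN, and none fell. Clec1b, the CLEC-2 receptor, rose by 0.95 in p38DKI (adjusted p = 0.0483), 1.43 in p38WT (adjusted p = 0.00431) and 1.44 in p38DN (adjusted p = 0.00391). It is also a platelet marker, and 6 of 15 platelet genes rose in p38DKI (14 without irradiated 2), 14 in p38WT and 15 in p38DN. Cd44, a hyaluronan receptor that binds podoplanin, rose by 0.88 in p38DKI (adjusted p = 0.0374), a call kept under 3 of 4 other scalings, and by 1.78 in p38DN (adjusted p = 0.000155). Its p38WT rise was 0.91 (adjusted p = 0.0358), called under 1 of 4 other scalings.

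In the CAR family and its junction partners, 5 of 15 measured genes rose and 1 fell in p38DKI (median 0.84), with 6 and 1 in p38WT (3 rises under another scaling) and 8 and 0 in p38DN. The junctional adhesion molecule Jam2 rose by 3.86 in p38DKI (at least 7.46-fold, adjusted p = 1.11e-05), by 2.50 in p38WT (adjusted p = 0.00137) and by 2.77 in p38DN (adjusted p = 0.000465). The scaffold Tjp1, also called ZO-1, rose by 2.23 in p38DKI (at least 2.26-fold, adjusted p = 0.000715). It also rose by 1.6 in p38WT (at least 1.15-fold, adjusted p = 0.0107) and by 1.35 in p38DN (adjusted p = 0.0287). Those 2 calls were kept under 2 and 0 of 4 other scalings. Neither Jam2 nor Tjp1 was well above background on any of the 5 unirradiated p38DKI arrays. Jaml, the leukocyte ligand of CAR, rose by 1.79 in p38DKI and 2.02 in p38WT (adjusted p = 0.000374 and 0.000113), with 0.70 in p38DN (adjusted p = 0.135). F11r, also called JAM-A, rose by 1.24, 1.59 and 1.79 in p38DKI, p38WT and p38DN, again with the p38WT call kept under 3 of 4.

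The class 3 semaphorins and their receptors gave 3 rises among 12 measured genes in p38DKI, 3 in p38WT and 4 in p38DN, and no falls. Plxna4, a plexin that transmits semaphorin signals, rose by 1.33 in p38DKI (adjusted p = 0.0224), 1.23 in p38WT (adjusted p = 0.0377, called under 1 of 4 other scalings) and 2.73 in p38DN (adjusted p = 4.29e-05). The kinase gene Fes rose by 0.88 in p38DKI, by 1.03 in p38WT and by 1 in p38DN, and the p38DKI and p38WT calls were each kept under 3 of 4 other scalings. Nrp2, the neuropilin that binds Sema3f best, differed by 0.21 in p38DKI (adjusted p = 0.616), and Plxna1 by -0.54 (adjusted p = 0.123). Nrp1 had no probe that passed the filter.

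**Figure D5:**
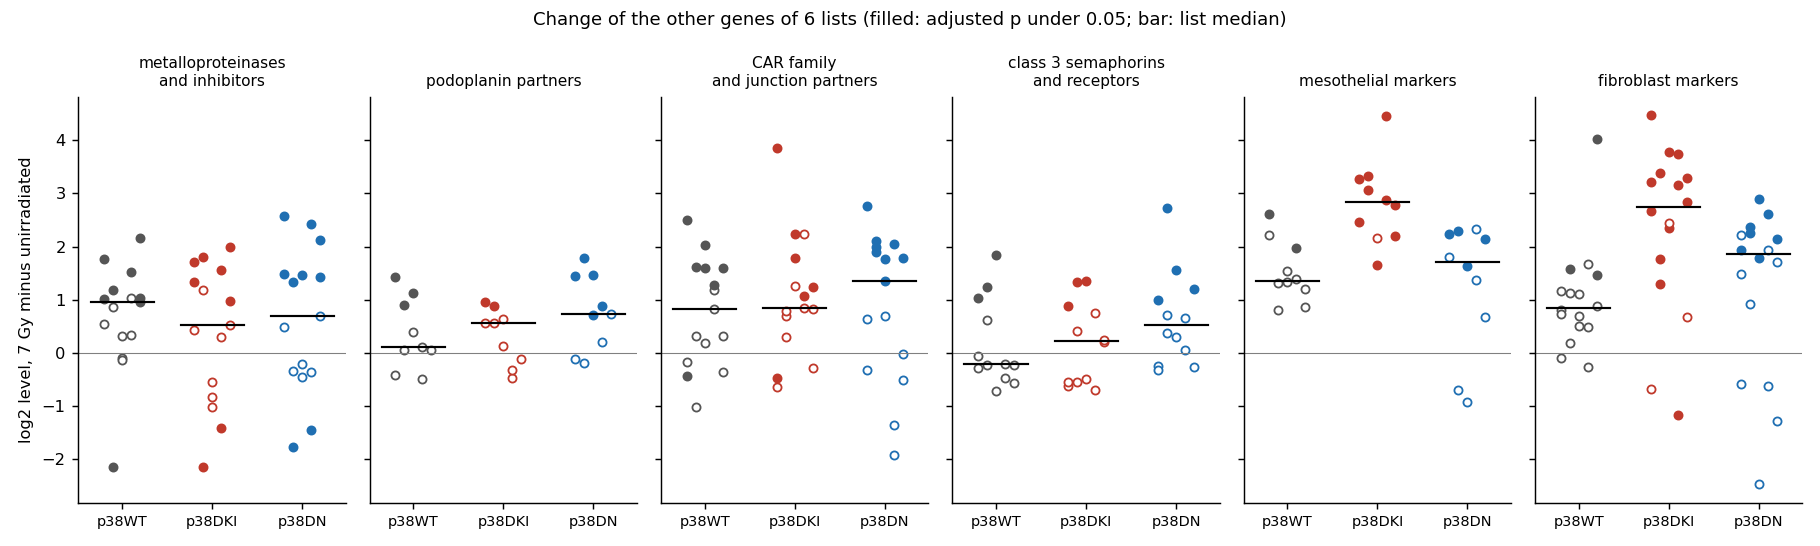
Log2 change from unirradiated to 7 Gy (y axis) of the other measured genes of 6 lists in p38WT, p38DKI and p38DN (x axis), filled where the limma adjusted p was under 0.05, with list medians as bars. The medians in p38DKI are 2.83 for mesothelial and 2.75 for fibroblast markers and 0.23 to 0.84 for the other 4 lists.

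The markers of stromal cells, checked because of the name given to the 4 genes, rose in p38DKI. There 9 of 10 mesothelial markers (median 2.83) and 12 of 16 fibroblast markers (median 2.75) rose, and 8 and 12 did so without irradiated 2. In p38WT 2 of 10 (0 under another scaling) and 3 of 16 rose (medians 1.36 and 0.84), and in p38DN 4 of 10 and 7 of 16 (medians 1.71 and 1.86). Dcn, the collagen-binding proteoglycan decorin, rose by 4.47 in p38DKI (adjusted p = 0.000879), with 1.17 in p38WT and 2.21 in p38DN (adjusted p = 0.395 and 0.0827). Fn1, or fibronectin, rose by 2.83 in p38DKI (adjusted p = 0.00276). Thy1, which T cells also express, fell by 1.16 in p38DKI (adjusted p = 0.0323), a call kept under 2 of 4 other scalings.

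Of the mesothelial genes, Msln rose by 3.26 in p38DKI (adjusted p = 0.00476) and by 2.23 in p38DN (adjusted p = 0.0497, called under 2 of 4 other scalings), with 2.21 in p38WT (adjusted p = 0.0523). Krt19 rose by 2.47 in p38DKI and 2.61 in p38WT (adjusted p = 0.0122 and 0.00885), the latter called under 3 of 4 other scalings. Krt18, which hepatocytes also express, differed by 2.16 in p38DKI (adjusted p = 0.135). Lymphatic and vascular endothelial markers, among which Pdpn is often counted, gave 4 rises among 9 genes in p38DKI, 6 in p38WT (2 under another scaling) and 5 in p38DN (medians 1.10, 1.39 and 1.18).

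Of 22 hepatocyte markers 1 rose in p38DKI (median 2.16) by limma, and in p38WT and p38DN 0 rose (medians 1.51 and -3.22) and 2 fell in p38DN. At an unadjusted limma p under 0.05 the rises were 5 in p38DKI and 0 in p38WT and p38DN, with 11 falls in p38DN. Those unadjusted counts have no share over all genes beside them and are not read as a result. Of 9 heart muscle markers and of 9 epithelial and bile duct markers, 0 and 3 rose in p38DKI (medians -0.03 and -0.34, both of which changed sign under another scaling), and the heart count by limma was also 0 at an unadjusted p under 0.05. Monocyte and macrophage markers gave 5 rises and 1 fall among 12 genes in p38DKI (median 0.94). Acute phase genes, many of them made by the liver, gave 8 rises among 20 with a median of 3.41, above the medians of both stromal lists, and 1.67 without irradiated 2. Blood-defining markers gave 2 rises and 7 falls among 12 genes in p38DKI, and 3 and 4 without irradiated 2. Without that array no hepatocyte marker was called.

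The genes most like each of the 4 were found by Pearson's r of log2 levels over the 30 arrays. Nearest to Timp1 were Nkain4 (0.89), the collagen gene Col3a1 (0.89), Dmkn (0.88), the heparan sulfatase gene Sulf1 (0.87) and the matrix proteoglycan gene Ogn (0.86), with Pdpn next at 0.85. Nearest to Pdpn were Col3a1 (0.96), the procollagen processing gene Pcolce (0.95), the transcription factor gene Wt1 (0.93), Cd34 (0.93) and Rspo1 (0.93). Col3a1 and Wt1 belong to the fibroblast and mesothelial lists.

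Nearest to Sema3f were Rab34 (0.94), Tmem98 (0.93), the small heat shock protein gene Hspb1 (0.93), Bace2 (0.93) and Dcn (0.93). Nearest to Cxadr were Hspb8 (0.89), Rhou (0.88), the transglutaminase gene Tgm2 (0.87), the syndecan gene Sdc2 (0.87) and Atp9a (0.86). Without p38DKI irradiated 2 the 5 nearest genes were the same for Timp1, Pdpn and Sema3f, and for Cxadr Tspan7 (0.82) replaced Atp9a. Among the likenesses between the 4 genes, Sema3f stood 21st for Cxadr with all arrays and 7th without that array, and Cxadr stood 487th for Timp1. These likenesses include the group differences that chose the genes and carry no p-value.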

How the data were processed

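Each of the 30 files holds the spot intensities of 1 Cy3 array, extracted per the file headers with Agilent Feature Extraction 12.0.2, which subtracts background. The authors also deposited a log2 table, which matches log2 of the processed signal, less a constant for each array, within 1.9e-06 for probes spotted once. Its 18417 rows served as an alternative. Control and outlier spots were left out, repeated spots were averaged, and log2 intensity minus each array's 75th percentile was used. Probes were kept if detected (well above background) on 4 or more of a group's 5 arrays and measured on 20 or more arrays. The brightest of the kept probes stood for a gene, which gave 23617 probes and 18726 genes. Of 39429 probes, 29056 were named by accession, 3150 by symbol and 116 by synonym in RefSeq, and 7107 kept the name in the file.

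One limma model of 6 group means (limma 3.58.1, R 4.3.3, 24 residual degrees of freedom) was fitted over the 30 arrays, with Benjamini-Hochberg adjustment over all genes and a threshold of 0.05. Adjusted p-values in the text are limma's. The alternatives were other scalings, normexp with offset 50 together with quantile normalization, the deposited values (which also cover fewer genes and lack some values), the filter, slide or replicate number as a block, each array left out, hepatocyte-rich arrays, and the hepatocyte mean as a covariate. Another 3 were chosen after seeing the data (the pair of p38WT arrays, the mesothelial mean, and that mean without keratins). In p38DN same-numbered arrays share a slide and scan day, so the slide block is the paired fit there. The fit was tested on simulated data.

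The 4 genes and the 15 gene lists were chosen with earlier results of these data known. Named pathway genes are up to 4 a list, by size of change among those called in p38DKI and detected on every array of the brighter group, plus Timp2, Timp3, Mmp8, Mmp9, Clec1b, Nrp1, Nrp2 and Plxna1. Named markers are up to 3 a list by mean level. The labels call the 5 arrays of a group independent experiments. The number of arrays limits the precision.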

Additional observations from a re-analysis of the deposited data

Results flagged for a closer look

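Of 24 sets of 5 arrays (4 genes in 6 groups), 3 held an array far from the others of its set, where the gap to the nearest array was more than 0.71 of the set's range. Chance gives about 1 such set in 20. Timp1 was 1.09 on p38WT unirradiated 5, against -5.70 to -4.50 on the other 4 arrays, and the gap was 0.824 of the range. Timp1 was -4.83 on p38WT irradiated 4, against -1.60 to -0.56 on the other 4, with a gap of 0.756 of the range. Cxadr was -1.44 on p38DKI unirradiated 1, against -4.65 to -3.94 on the other 4, with a gap of 0.779. That array also had the highest hepatocyte mean (2.47) and mesothelial mean (-1.21) of its group, and their part in its Cxadr level was not tested.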

How the results depend on the processing

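In p38DKI, normexp with quantile normalization gave changes of 1.24 for Timp1, 1.68 for Pdpn, 1.58 for Cxadr and 1.10 for Sema3f, and the mesothelial covariate gave 3.33, 0.91, 2.17 and 1.37. Slide as a fixed block gave 6.72 for Pdpn and 6.02 for Sema3f, and the other probes gave -0.14 for Pdpn and 0.33 for Cxadr. In p38WT, slide as a fixed block gave -2.45 for Timp1, -1.88 for Pdpn and -0.07 for Sema3f, slide as a random block gave 2.44 for Timp1 (limma adjusted p = 0.0343), and the mesothelial covariate gave -0.54 for Pdpn and -0.45 for Sema3f. Without the 4 hepatocyte-rich arrays Cxadr in p38WT was 1.69 (limma adjusted p = 0.028). Without p38WT unirradiated 5 and irradiated 4, which were picked by these levels, the p38WT changes were 4.11, 3.02 and 2.43 for Timp1, Pdpn and Sema3f, and the p38DN minus p38WT difference of Timp1 was -2.67.

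In p38DN, Pdpn was 0.88 under normexp, 2.51 in the deposited values and 1.05 in the other probe, which was not well above background there. Cxadr was 0.05 without scaling, -2.18 in the deposited values (3 of 5 unirradiated arrays held), 2.75 without the hepatocyte-rich arrays and 1.52 with the hepatocyte covariate. Sema3f was 1.99 with the hepatocyte covariate, 2.52 without the hepatocyte-rich arrays (not called) and -0.52 with the mesothelial one. Leaving out the hepatocyte-rich arrays left unirradiated 1 and 3 as p38DN controls, not well above background in Cxadr or Sema3f. The hepatocyte covariate itself differed by treatment in p38DN. For p38DN minus p38WT, Sema3f was 0.18 without scaling, 1.02 with slide fixed, 1.24 without the hepatocyte-rich arrays and 1.09 with the hepatocyte covariate, Cxadr was 1.06 and 0.40 under the latter pair, and Timp1 was 3.89 with slide fixed. The causes were not tested.

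Leaving out 1 array at a time gave 5.30 to 5.94 for Timp1, 4.08 to 5.36 for Pdpn, 4.07 to 5.24 for Cxadr and 4.23 to 5.18 for Sema3f in p38DKI. In p38WT the ranges were 1.68 to 3.37, 0.84 to 2.40, 1.32 to 1.96 and 0.79 to 2.01. In p38DN they were 1.25 to 1.76, 3.09 to 3.78, -0.79 to 0.56 and 0.54 to 1.36, and for p38DN minus p38WT -1.93 to -0.23, 1.01 to 2.57, -2.48 to -1.13 and -1.07 to 0.15.

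The count of genes called for p38DN minus p38WT was 307, and 84 to 454 with 1 array left out. It was 106 with array medians, 908 with normexp, 78 with no filter, 2 with slide fixed, 461 with slide random, 693 without the hepatocyte-rich arrays, 1053 with the hepatocyte covariate and 511 without the p38DKI arrays in the fit. The p38DN count was 3375 without scaling, the p38WT count 163 with slide fixed, and the p38DKI count 683 with slide fixed and 2435 with the mesothelial covariate.

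With the replicate number as a block, 5064 genes were called in p38WT, 5275 in p38DN, 283 for their difference and 5776 in p38DKI, and Pdpn in p38DN had a limma adjusted p of 0.00773. The block changed no call of the 4 genes. Deviations of same-numbered arrays correlated above 0.1 in 2 of 5 pairs in p38WT, 2 of 5 in p38DKI and 3 of 5 in p38DN. The numbers were not taken as pairs in p38WT and p38DKI. In p38DN they share a slide, and slide as a fixed block kept the Pdpn call (limma adjusted p = 0.00344) and made no other among the 4 genes. Levels near background, as for Timp1, detected on 11 of 30 arrays, have little precision.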
